A study of Mus musculus with 6 samples.

Results

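Interferon-stimulated genes were followed in kidneys of wild-type C57Bl/6 mice 28 days after ischaemia-reperfusion injury, in which blood flow to the kidney is stopped and then restored. The members were 39 genes chosen by name, all of them present among the 35275 genes of the count table and all of them expressed well enough to be tested (14883 genes were). Of the 39 members, 28 are induced mainly by type I interferon. Another 6 encode guanylate-binding proteins and immunity-related GTPases, which respond strongly to interferon-gamma. The other 5 encode transcription factors of the Irf and Stat families (Irf1, Irf5, Irf7, Irf9 and Stat2). Poly-A RNA was sequenced from 3 kidneys after 20 min of ischaemia (mild injury) and 3 after 35 min (severe injury); both groups carried the same genotype, were taken at the same time and had been injured, and uninjured kidneys were not analysed here. Every difference thus compares 35 with 20 min of ischaemia, not injured with uninjured tissue. The labels do not say whether the kidneys of a group came from separate mice, so p-values rest on the spread among the 6 libraries alone, which may be technical.

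Interferons are secreted proteins, and those of type I are released when a cell senses foreign or misplaced nucleic acid. Type I interferons bind the receptor formed by IFNAR1 and IFNAR2, and the kinases JAK1 and TYK2 then activate transcription factors, among them STAT2, which joins IRF9 at interferon-stimulated response elements in the promoters of their target genes. Interferon-gamma uses another receptor and acts through gamma-activated sites. The induced genes encode sensors of viral RNA, enzymes that degrade or edit RNA, proteins that block viral entry and release, and brakes on the signal itself. In the kidney, tubule cells and leukocytes can all respond.

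The libraries are called mild 7, 8 and 9 and severe 13, 14 and 15. They held 15240491 to 17730967 gene counts, and the 39 members together had 85333 counts over all libraries, from 195 to 11478 per gene. The label kidney was borne out by 10 tubule markers, whose summed level was 36390 to 39050 CPM in mild and 16510 to 32020 CPM in severe libraries (CPM, gene counts relative to the TMM-scaled library size). Severe library 14 stood apart: its counts differed from those of the other severe libraries by 35.5 and 77.1 times the sampling noise (chi-square per degree of freedom), against 3.82 to 5.58 between mild libraries and 15.3 between severe libraries 13 and 15. It also had the lowest tubule markers. The spread on the log2 scale was larger in severe than in mild kidneys for 71.8% of members and 73.2% of all tested genes.

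Most interferon-stimulated genes stood modestly higher after the longer ischaemia, and 8 of them differed by less than 1.1-fold in either direction. The log2 fold change, severe minus mild, was above 0 for 37 of 39 members, with a median of 0.46 (1.38-fold) beside a median of 0.0001937 over all tested genes. It ran from -0.0726 (Trim25) to 0.82 (Isg15). All 3 severe libraries lay above all 3 mild libraries for 18 members, 46.2% of them, where this held for 17.9% of all tested genes. For 0 members did all severe libraries lie below all mild ones, which held for 16.1% of all tested genes. At an unadjusted p under 0.05 there were 21 members higher (53.8%, against 15.8% of all tested genes) and 0 lower, where 7.89% of all tested genes were (edgeR quasi-likelihood test).

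None of the 39 members passed the threshold of 0.05 after Benjamini-Hochberg adjustment over all tested genes in edgeR, where 0.00672% of all tested genes were called higher and as many lower; the members' adjusted p lay between 0.0873 and 0.891. The count depended on the tool and on single libraries. DESeq2 called 12 members higher and 0 lower, beside 7.19% of all tested genes higher and 0.993% lower. edgeR without severe library 13, which had the lowest severe level for 30 members, called 20 higher and 0 lower, beside 13.8% and 7.74% of all tested genes. Without severe library 14 it called 2 higher, Oasl2 and Samhd1, and 0 lower, beside 2.4% and 0.931%. Without severe library 15 it called 0, beside 0.00664% of all tested genes higher, with 15 members at an unadjusted p under 0.05 (12.8% of all tested genes). Without severe library 14 the median of the members was 0.38.

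**Figure D1:**
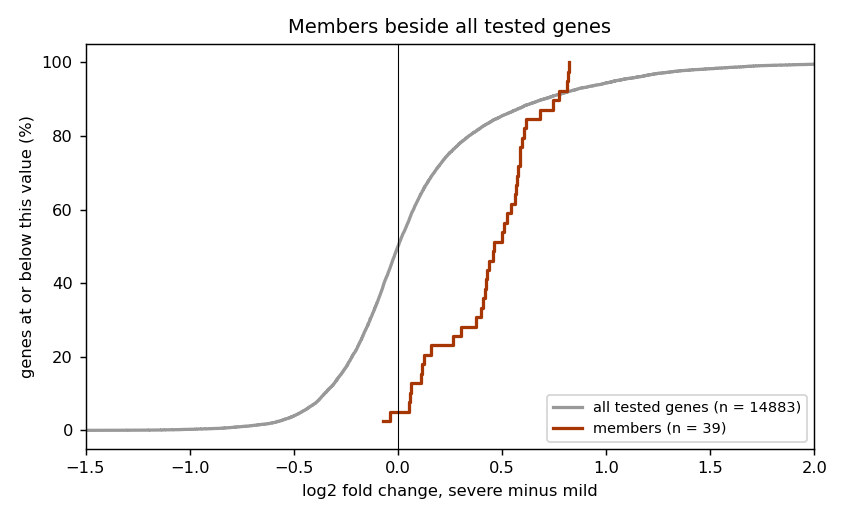
Share of genes (y axis, percent) at or below each log2 fold change, severe minus mild (x axis), for the 39 members and for the 14883 tested genes. The few genes beyond the ends of the x axis are not drawn. The curve for the members lies to the right of 0 for 37 genes and ends at 0.82, whereas the curve for all genes crosses 0 near its middle and reaches further on both sides.

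Whole-kidney RNA mixes cell types, and fewer cells of a type and less RNA per cell cannot be told apart. All 14 leukocyte and macrophage markers were higher in severe kidneys at an unadjusted p under 0.05 (edgeR), 12 of them (85.7%) with groups apart. Over all tested genes these shares were 15.8% and 17.9%. The median log2 fold change of the leukocyte and macrophage markers was 1.12. Their summed level was 355 to 427 CPM in mild and 650 to 1289 CPM in severe libraries, with none of them at 0 in any library. Beside it, the median of the interferon-stimulated members was 0.46. Fibroblast markers had a median of 1.66 over 5 genes, the 10 tubule markers one of -0.51, and the 5 endothelial markers one of 0.0527. The part of these cell types in the values of the interferon-stimulated genes was not tested.

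The promoters of the members are shown next, because the same short element stands before genes whose groups were apart and before genes whose groups overlapped. The RefSeq table for GRCm38.p6, the same build as the counts (mm10), held a promoter (250 bases before to 50 after the start) for 31 of the 39 members. The interferon-stimulated response element was searched on both strands as GAAA, any 2 bases and GAAA again (which reads TTTC, 2 bases and TTTC from the other strand), and matches may overlap. It was found in 16 of 31 member promoters (51.6%), against 3.49% of 27025 promoters with 1 start per gene. It was present in 5 of 5 promoters of the GTPases, 10 of 21 of the type I induced genes and 1 of 5 of the Irf and Stat genes. The gamma-activated site TTCNNNGAA was found in 10 of 31 (32.3%), against 8.42% of all.

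Of the members whose 3 severe libraries all exceeded the mild ones, 4 promoters are given here as 60 bases around the element, all of them before the start, 5′ to 3′ on the gene's strand, with the response element in capitals. Isg15 (chr4:156200850-156200909, minus strand) has 3 overlapping matches, Bst2 (chr8:71537562-71537621, minus strand) has 2, and Ifit3 (chr19:34583382-34583441, plus strand) and Gbp7 (chr3:142530258-142530317, plus strand) have 1 each in these windows.
Isg15: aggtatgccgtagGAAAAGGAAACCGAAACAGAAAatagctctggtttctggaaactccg
Bst2: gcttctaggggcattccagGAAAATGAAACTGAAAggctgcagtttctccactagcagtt
Ifit3: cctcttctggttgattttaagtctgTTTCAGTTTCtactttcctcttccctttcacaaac
Gbp7: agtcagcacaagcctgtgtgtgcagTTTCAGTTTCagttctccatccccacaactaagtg

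Of the members whose groups overlapped, 4 promoters that also hold the element are given in the same way. Ifit1 (chr19:34640779-34640838, plus strand) and Oas1a (chr5:120907526-120907585, minus strand) have 2 matches each, and Rsad2 (chr12:26456538-26456597, minus strand) and Igtp (chr11:58199496-58199555, plus strand) have 1 each. All 8 windows lie outside annotated exons in GENCODE M21.
Ifit1: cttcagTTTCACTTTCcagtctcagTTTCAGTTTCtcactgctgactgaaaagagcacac
Oas1a: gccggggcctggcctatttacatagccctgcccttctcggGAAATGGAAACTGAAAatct
Rsad2: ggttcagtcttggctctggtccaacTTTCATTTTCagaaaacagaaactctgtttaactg
Igtp: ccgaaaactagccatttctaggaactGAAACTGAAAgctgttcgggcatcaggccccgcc

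The median log2 fold change was 0.47 over the 16 members with the element (from 0.0625 to 0.82) and 0.43 over the 15 without it (from -0.0726 to 0.74), so the ranges of members with and without these letters overlapped almost wholly. A match is a description of letters and not a site of binding. The Irf1 promoter (chr11:53769899-53769958, plus strand) is shown for the other element, a gamma-activated site in capitals 90 bases before the start.
Irf1: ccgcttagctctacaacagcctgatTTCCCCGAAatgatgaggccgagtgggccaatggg

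Among the 28 type I induced genes, 26 had a log2 fold change above 0. Groups were apart for 14 (50%, against 17.9% of all tested genes). An unadjusted p under 0.05 was reached by 15, all on the higher side (53.6%, against 15.8%, edgeR). The median was 0.52. The 4 with the smallest p were Samhd1, Bst2, Oasl2 and Rtp4.

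Samhd1 (ENSMUSG00000027639), a phosphohydrolase that depletes the nucleotides needed to copy viral DNA, is a minus-strand gene at chr2:157097533-157135265 in mm10. It stood at 37.6, 39.9 and 42.1 CPM in mild libraries 7, 8 and 9 and at 48.7, 68.3 and 60.1 CPM in severe libraries 13, 14 and 15. The groups did not overlap, and severe library 13 was the closest to the mild ones. The mean was 39.9 ± 2.22 CPM after mild and 59.02 ± 9.83 CPM after severe injury (SD, n = 3 libraries a group, as for every mean here), and the log2 fold change was 0.57 ± 0.13 with its standard error (edgeR adjusted p = 0.0873).

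Bst2 (ENSMUSG00000046718), which encodes tetherin, a membrane protein that holds budding virus at the cell surface, is a minus-strand gene at chr8:71534264-71537437. It stood at 21.6, 22.6 and 23.9 CPM in mild 7, 8 and 9 and at 27.5, 34.2 and 37.6 CPM in severe 13, 14 and 15. All severe libraries were above all mild ones, and library 15 rather than 14 was the highest. Its log2 fold change was 0.54 ± 0.12 (edgeR adjusted p = 0.0883).

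Oasl2 (ENSMUSG00000029561), a member of the oligoadenylate synthetase family with ubiquitin-like domains, is a plus-strand gene at chr5:114896936-114912234. It stood at 15.2, 17.0 and 15.5 CPM in mild 7, 8 and 9 and at 22.5, 34.2 and 23.2 CPM in severe 13, 14 and 15. Severe libraries 13 and 15 were close together, and library 14 was well above both. The log2 fold change was 0.74 ± 0.17 (edgeR adjusted p = 0.0883), and 0.52 without library 14.

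Rtp4 (ENSMUSG00000033355), a receptor transporter protein gene induced by type I interferon, is a plus-strand gene at chr16:23609919-23614222. It stood at 7.86, 6.77 and 7.96 CPM in mild 7, 8 and 9 and at 12.9, 16.5 and 10.3 CPM in severe 13, 14 and 15, so that here library 15 was the lowest of the severe kidneys. The log2 fold change was 0.81 ± 0.19 (edgeR adjusted p = 0.0896).

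Isg15 (ENSMUSG00000035692), the ubiquitin-like modifier that gives the group its name, had the largest log2 fold change of the members. This minus-strand gene at chr4:156199424-156200818 stood at 4.96, 4.01 and 5.01 CPM in mild 7, 8 and 9 and at 6.51, 9.40 and 8.79 CPM in severe 13, 14 and 15. The groups were apart, and the log2 fold change was 0.82 ± 0.19 (edgeR adjusted p = 0.0896). Of the enzymes of ISG15, the conjugating enzyme gene Ube2l6, which is not a member, had groups apart (log2 fold change 0.49 ± 0.18). The margin was small, with 7.34 CPM in mild library 9 and 7.56 CPM in severe library 13. Herc6, listed with Ube2l6 among the feedback genes and chosen after its values were seen, had overlapping groups (log2 fold change 0.32 ± 0.20). For 2 other genes of ISG15 enzymes, the members Trim25 and Usp18, the groups overlapped as well. Trim25, a ubiquitin ligase for the RNA sensor RIG-I and for ISG15, had a mean of 121 ± 4.25 CPM after mild and of 116 ± 10.2 CPM after severe injury. Usp18, the protease that removes ISG15 and restrains the type I receptor, stood at 5.24 ± 0.878 and 5.65 ± 0.328 CPM (log2 fold change 0.11 ± 0.17). Whether Isg15 and Usp18 differed from each other in their change was not tested.

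The 3 cytosolic sensors of viral RNA all had groups apart. The log2 fold change of Ddx58, which encodes RIG-I, was 0.57 ± 0.16, that of Ifih1, which encodes MDA5, 0.52 ± 0.15, and that of Dhx58, which encodes the regulatory relative LGP2, 0.60 ± 0.23 (edgeR adjusted p = 0.111, 0.112 and 0.18). Eif2ak2, which encodes the RNA-activated kinase PKR, had a mean of 15.2 ± 0.315 CPM after mild and 22.7 ± 4.58 CPM after severe injury, with groups apart (log2 fold change 0.57 ± 0.15). The RNA-editing enzyme gene Adar had a log2 fold change of 0.30 ± 0.11, with mild library 9 (42.1 CPM) just above severe library 13 (41.9 CPM).

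The IFIT genes, whose products bind foreign RNA, lie near one another on chromosome 19. There are 7111 bases between Ifit2 and Ifit3 and 52139 bases between Ifit3 and Ifit1. The second stretch holds other genes, among them Ifit3b, which is given below. The mean of Ifit2 was 17.8 ± 0.872 CPM after mild and 26.8 ± 6.21 CPM after severe injury and that of Ifit3 25.2 ± 1.81 and 33.6 ± 3.98 CPM, both with groups apart. Ifit1 stood at 7.17, 6.41 and 8.44 CPM in mild 7, 8 and 9 and at 8.32, 8.66 and 6.82 CPM in severe 13, 14 and 15. These ranges overlap almost wholly (log2 fold change 0.12 ± 0.16). A near-identical copy of Ifit3, Ifit3b (listed as I830012O16Rik), had a log2 fold change of 0.76 ± 0.13, and reads of the pair may be split between them.

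The OAS genes make the messenger that activates RNase L. On chromosome 5, the log2 fold change was 0.82 ± 0.23 for Oas2, 0.59 ± 0.27 for Oas3 and 0.38 ± 0.18 for Oas1a, with groups apart for the first pair and overlapping for Oas1a, whose reads may be shared with its close relative Oas1g. Oasl1, 11005 bases from Oasl2, had groups apart at a log2 fold change of 0.50 ± 0.19. The dynamin-like GTPases Mx1 and Mx2 were low, with 2.17 ± 0.776 and 1.84 ± 0.425 CPM in mild kidneys, and both had overlapping groups. For Mx2 the log2 fold change of 0.44 ± 0.31 was 0.28 without mild library 7, 0.66 without severe library 13 and 0.25 without severe library 15. The C57BL/6 strain carries a defective Mx1 gene.

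Rsad2, which encodes viperin, and Cmpk2, a mitochondrial nucleotide kinase gene, are divergent neighbours on chromosome 12 with 12751 bases between them. For both, the groups overlapped. Rsad2 stood at 49.8, 48.5 and 43.2 CPM in mild 7, 8 and 9 and at 60.5, 44.2 and 49.4 CPM in severe 13, 14 and 15, and Cmpk2 at 23.9, 25.8 and 19.97 CPM in mild, against 25.6, 18.4 and 24.04 CPM in severe libraries in the same order. For both, library 13 was the highest and library 14 the lowest of the severe kidneys, an order that Trim25 shared and Samhd1, Oasl2 and Isg15 did not. For Ifi44 the log2 fold change was 0.0599 ± 0.128, and it was 0.0532 ± 0.157 for Ifi35.

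In all, 7 of the 28 type I induced genes differed by less than 1.1-fold in either direction (Rsad2, Ifit1, Usp18, Ifi44, Ifi35, Cmpk2 and Trim25), and 9 were more than 1.5-fold higher. Parp14, an ADP-ribosyltransferase gene, had overlapping groups and a log2 fold change of 0.68 ± 0.24, which was 0.38 when severe library 14 was left out. For Xaf1, which promotes cell death, the log2 fold change was 0.40 ± 0.21, and 0.16 without library 14, and that of Isg20, an RNA exonuclease gene, was 0.51 ± 0.29 at 1.30 to 2.83 CPM.

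**Figure D2:**
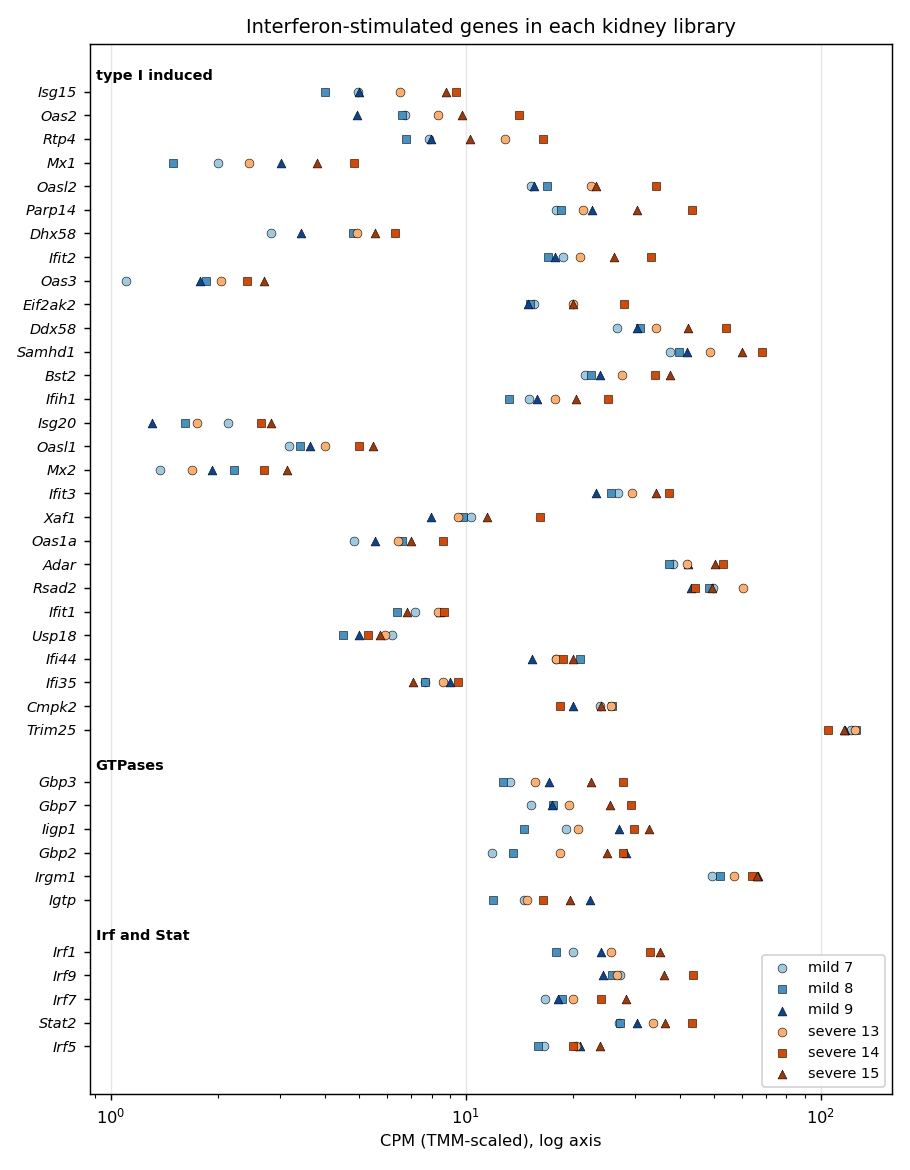
Level of each member (CPM, log axis) in each of the 6 libraries, mild in blue and severe in orange, by class and ordered by log2 fold change within each class. Orange points stand to the right of blue ones for 18 members, among them Isg15, Oasl2 and Samhd1, and are mixed with them for Rsad2, Ifit1 and Cmpk2; among the GTPases mild library 9 (dark blue triangle) lies with the severe libraries for Gbp2, Irgm1 and Igtp.

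**Figure D3:**
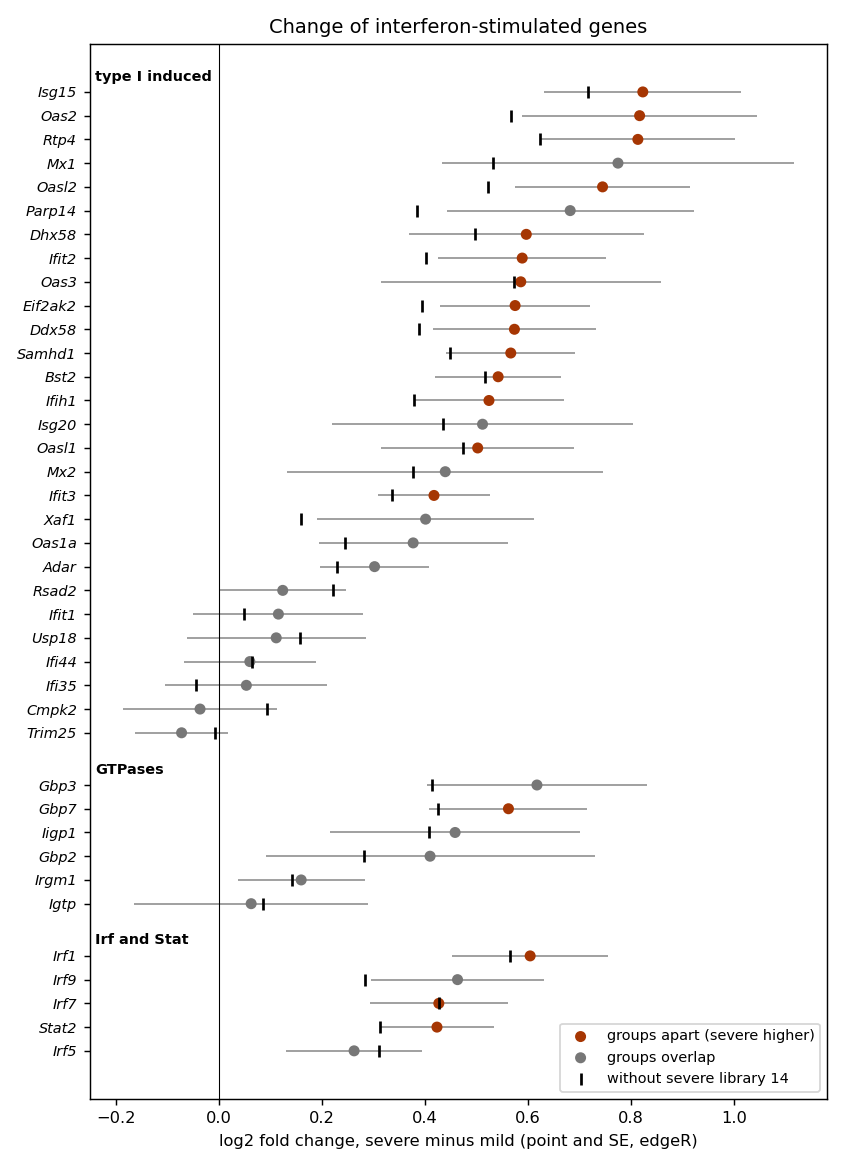
Log2 fold change, severe minus mild, of each member with its standard error from edgeR (points and bars, n = 3 libraries a group) and the value without severe library 14 (vertical ticks). Points are coloured by whether all severe libraries lay above all mild ones. The values run from -0.0726 for Trim25 to 0.82 for Isg15. Among the 31 members that differed by 1.1-fold or more, the ticks for Parp14, Xaf1, Oas1a and Irf9 lie more than 1.5 times lower than their points.

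Per base of gene length, the most abundant member in mild kidneys was Bst2 with a mean level of 29.7 CPM per kilobase, followed by Trim25 at 21.7, Irgm1 at 14.6, Ifit3 at 14.4 and Rsad2 at 11.3. The lowest levels on this scale were those of Oas3 at 0.335, Mx1 at 0.642 and Mx2 at 0.742 CPM per kilobase. The median over the 39 members was 5.36. Groups were apart for abundant Bst2 and scarce Oas3, and overlapped for abundant Trim25 and scarce Mx1.

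Among the GTPases, mild library 9 lay above every severe library for Gbp2, Irgm1 and Igtp, within their range for Gbp3 and Iigp1, and below all of them for Gbp7. These proteins assemble on the vacuoles of intracellular pathogens. Their median log2 fold change was 0.43, while 1 of 6 had groups apart (16.7%) and 2 had an unadjusted p under 0.05 (33.3%, edgeR). Over all tested genes these shares were 17.9% and 15.8%, so the count of groups apart was that of genes in general. The median was 0.66 without mild library 9, 0.26 without mild library 8 and 0.31 without mild library 7, and it was 0.34 without severe library 14 or 15. Without severe library 13 the log2 fold changes were 0.82 (Gbp3), 0.72 (Gbp7), 0.64 (Iigp1), 0.57 (Gbp2), 0.23 (Irgm1) and 0.16 (Igtp). Each was above its value with all libraries.

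Gbp7 (ENSMUSG00000040253), a plus-strand gene at chr3:142530338-142550083, stood at 15.2, 17.6 and 17.4 CPM in mild 7, 8 and 9 and at 19.5, 29.1 and 25.5 CPM in severe 13, 14 and 15. It was the member of this class whose groups were apart, and its log2 fold change was 0.56 ± 0.15 (edgeR adjusted p = 0.111). Its neighbour Gbp3 stood at 13.3, 12.7 and 17.1 CPM in mild, against 15.7, 27.7 and 22.6 CPM in severe libraries in the same order. Here mild library 9 exceeded severe library 13 (log2 fold change 0.62 ± 0.21, edgeR adjusted p = 0.155). In the table the neighbouring gene Gbp5 spans 13158 bases of Gbp3 and 19746 bases of Gbp7, so the counts of these genes are uncertain.

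Iigp1, a plus-strand gene at chr18:60376029-60392627, stood at 19.2, 14.6 and 26.97 CPM in mild 7, 8 and 9 and at 20.7, 29.7 and 32.9 CPM in severe 13, 14 and 15 (log2 fold change 0.46 ± 0.24, edgeR adjusted p = 0.274). Its log2 fold change was 0.27 without mild library 8 and 0.73 without mild library 9. Irgm1, a regulator of the other GTPases, stood at 49.2, 52.04 and 66.4 CPM in mild, against 57.1, 63.97 and 66.2 CPM in severe libraries. In both genes mild library 9 was above severe library 13, and for Irgm1, whose log2 fold change of 0.16 ± 0.12 was 0.0808 without mild library 7 and 0.31 without mild library 9, it was the highest of all 6. Gbp2 stood at 11.9, 13.6 and 28.2 CPM in mild, against 18.4, 27.7 and 25.02 CPM in severe libraries, again with mild library 9 the highest; its log2 fold change was 0.41 ± 0.32, 0.90 without that library, 0.19 without mild library 7 and 0.25 without mild library 8. Igtp had a mean of 16.3 ± 5.43 CPM after mild and 17.0 ± 2.40 CPM after severe injury and was also highest in mild library 9. Irgm2 spans 7974 of its bases in the table, so its counts are uncertain too.

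The same order was seen in other genes known for their induction by interferon-gamma. Of 19 tested genes of that list, 19 had a log2 fold change above 0 (median 0.41), 7 had an unadjusted p under 0.05 and 0 passed the adjustment (edgeR). The 7 were 36.8% of the list, all on the higher side, against 15.8% of all tested genes. Groups were apart for 2 of the 19 (10.5%, against 17.9% of all tested genes). Mild library 9 was the highest mild library for 15 of the 19, and for 4936 of all 14883 tested genes. The log2 fold changes of the 4 with the smallest p were those of Gbp8 (1.30 ± 0.42), Nlrc5, which drives MHC class I genes (0.53 ± 0.18), Ciita, which drives MHC class II genes (0.55 ± 0.20), and the feedback inhibitor Socs1 (0.67 ± 0.25). Cxcl9, a chemokine that attracts T cells, stood at 1.52, 1.74 and 8.03 CPM in mild 7, 8 and 9 and at 2.85, 7.26 and 6.58 CPM in severe 13, 14 and 15, with mild library 9 above every severe library. Cxcl10 stood at 8.20, 6.83 and 17.5 CPM in mild, against 7.10, 17.7 and 17.95 CPM in severe libraries. Cxcl9 and Cxcl10 were chosen after their values were seen.

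T and NK cell markers had a like order of libraries. Of 12 listed genes 7 could be tested, and 0 had an unadjusted p under 0.05 (edgeR). Their summed level was 8.89, 11.9 and 16.3 CPM in mild 7, 8 and 9 and 12.04, 17.95 and 19.2 CPM in severe 13, 14 and 15, and none of the 12 genes was at 0 in any library. Mild library 9 was thus above severe library 13, as for the GTPases. The part of these cells in the level of the GTPases was not tested.

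**Figure D4:**
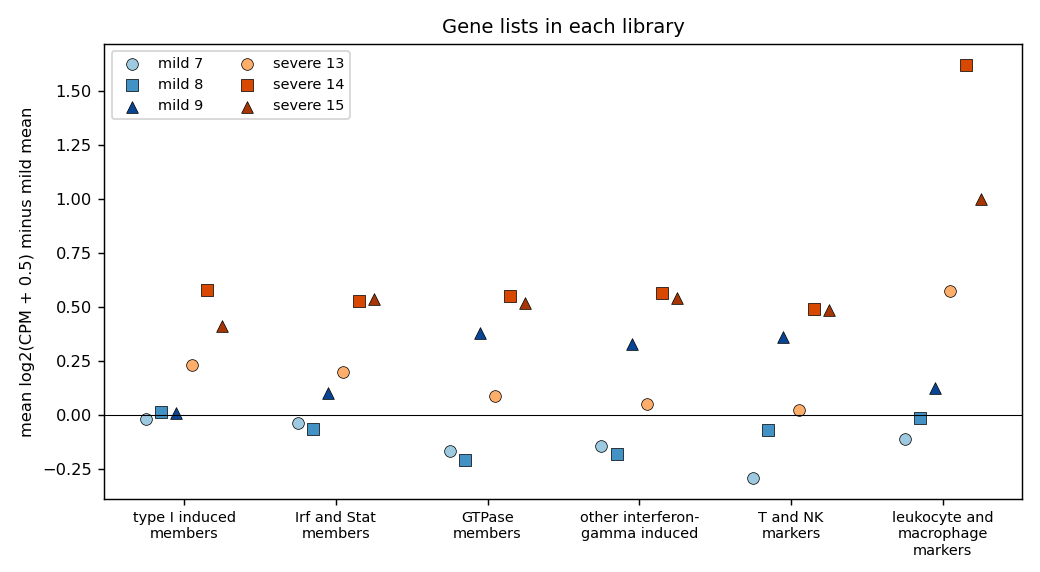
Mean over each list's tested genes of log2(CPM + 0.5) minus the mean of the mild libraries (y axis), for 6 gene lists (x axis) and each of the 6 libraries. For the type I induced members the mild libraries lie together between -0.0205 and 0.0116 and all severe libraries lie above them, whereas for the GTPases, the other genes induced by interferon-gamma and the T and NK markers mild library 9 (0.38, 0.33 and 0.36) lies above severe library 13 (0.0889, 0.0515 and 0.0204).

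Set side by side by library, the mean log2 level of the type I induced members, taken relative to the mild mean, was -0.0205, 0.0116 and 0.00893 in mild 7, 8 and 9 and 0.23, 0.58 and 0.41 in severe 13, 14 and 15. The 3 mild libraries were close together, and the severe ones were apart from them in the order 13, 15, 14. For the GTPases the values were -0.17, -0.21 and 0.38 in mild and 0.0889, 0.55 and 0.52 in severe libraries, so that the groups overlapped. For the Irf and Stat genes they were -0.0395, -0.0636 and 0.10 in mild and 0.20, 0.52 and 0.54 in severe libraries. The leukocyte and macrophage markers had the same order of severe libraries as the type I induced genes, at 0.57, 1.62 and 1.001 in severe 13, 14 and 15. Fibroblast markers shared that order, at 0.77, 2.19 and 1.59, and tubule markers had it reversed, at -0.18, -0.998 and -0.35. Endothelial markers had another order, at 0.21, -0.0794 and 0.0301. The order was thus not particular to leukocyte markers. The difference between the classes was not tested.

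All 5 Irf and Stat genes had a log2 fold change above 0, with a median of 0.43. Of them 3 had groups apart (60%, against 17.9% of all tested genes). An unadjusted p under 0.05 was reached by 4 (80%, against 15.8%, edgeR). Irf1 (ENSMUSG00000018899), a transcription factor induced by interferon-gamma, is a plus-strand gene at chr11:53770014-53778374. It stood at 19.99, 17.9 and 24.02 CPM in mild 7, 8 and 9 and at 25.7, 33.03 and 35.3 CPM in severe 13, 14 and 15. The groups were apart by a small margin, since mild library 9 came close to severe library 13. The log2 fold change was 0.60 ± 0.15 (edgeR adjusted p = 0.1).

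Stat2 (ENSMUSG00000040033), which carries the type I signal into the nucleus, stood at 26.95, 27.1 and 30.4 CPM in mild 7, 8 and 9 and at 33.6, 43.3 and 36.3 CPM in severe 13, 14 and 15 (log2 fold change 0.42 ± 0.11, edgeR adjusted p = 0.107). Its DNA-binding partner Irf9 stood at 27.2, 25.8 and 24.3 CPM in mild, against 26.6, 43.7 and 36.2 CPM in severe libraries. For Irf9 severe library 13 lay inside the mild range, and the log2 fold change of 0.46 ± 0.17 (edgeR adjusted p = 0.166) was 0.28 without library 14. Irf7, the amplifier of type I interferon production, stood at 16.8, 18.7 and 18.2 CPM in mild, against 20.01, 23.97 and 28.2 CPM in severe libraries, with groups apart (log2 fold change 0.43 ± 0.13, edgeR adjusted p = 0.132). Irf5, a factor of macrophages, had overlapping groups and a log2 fold change of 0.26 ± 0.13, which was 0.40 without mild library 9. Of its bases, 1043 overlap Tnpo3 on the other strand. Where strand is unknown such reads cannot be told apart.

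The interferon genes themselves had almost no counts. Of 21 interferon genes, 17 had 0 counts in every library, Ifnb1 among them. The other 4 (Ifnab, Ifng, Ifnk and Ifnz) had 9 counts together over all libraries. For each of the 17, a count of 0 allows a level of up to 3 counts, or 0.169 to 0.207 CPM by library (counting error only), and lower levels were not detectable at this depth. Ifng had 1 count in mild library 9 and 1 each in severe libraries 13 and 15.

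Receptors and kinases of the pathway were mostly higher in severe kidneys. All 10 tested genes had a log2 fold change above 0 (median 0.30). Groups were apart for 7 (70%, against 17.9% of all tested genes). An unadjusted p under 0.05 was reached by 7 (70%, against 15.8%), while 0 passed the adjustment (edgeR). The interferon-gamma receptor chain Ifngr2 stood at 23.4, 23.8 and 26.2 CPM in mild 7, 8 and 9 and at 33.2, 48.7 and 38.7 CPM in severe 13, 14 and 15. Its groups were apart, and the log2 fold change was 0.72 ± 0.14 (edgeR adjusted p = 0.0867). Its partner Ifngr1 had a log2 fold change of 0.59 ± 0.18, and those of the other 2 with the smallest p were 0.66 ± 0.15 for Ifnlr1, the interferon-lambda receptor found mainly on epithelia, and 0.29 ± 0.07 for the kinase gene Tyk2. The type I receptor chains, chosen after their values were seen, had log2 fold changes of 0.32 ± 0.12 (Ifnar1, groups apart) and 0.27 ± 0.12 (Ifnar2, groups overlapping).

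Of 15 tested genes of nucleic acid sensing, 8 were higher and 1 lower at an unadjusted p under 0.05, and 0 passed the adjustment (edgeR). The 8 were 53.3%, against 15.8% of all tested genes higher and 7.89% lower. Groups were apart on the higher side for 6 (40%, against 17.9% of all tested genes). They were apart on the lower side for 3, Mavs, Ticam1 and Irf3, which held for 16.1% of all tested genes. The DNA sensors were on the higher side. Tmem173, which encodes the adaptor STING, stood at 5.58, 5.99 and 6.86 CPM in mild 7, 8 and 9 and at 8.90, 23.7 and 14.8 CPM in severe 13, 14 and 15 (log2 fold change 1.36 ± 0.33, edgeR adjusted p = 0.0948). Mb21d1, which encodes the DNA sensor cGAS, had a mean of 1.22 CPM after mild and 2.62 CPM after severe injury, Ifi204 one of 6.05 and 12.4 CPM and the inflammasome sensor Aim2 one of 1.60 and 3.28 CPM, all 3 with groups apart. The gene lower at an unadjusted p under 0.05 (edgeR) was Mavs, the mitochondrial adaptor of RIG-I and MDA5. It stood at 94.5, 85.1 and 84.8 CPM in mild, against 79.7, 65.8 and 71.01 CPM in severe libraries (log2 fold change -0.29 ± 0.09, edgeR adjusted p = 0.142). Mavs and Ticam1 were chosen after their values were seen.

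Among 8 feedback genes, 4 were higher at an unadjusted p under 0.05 and 0 passed the adjustment (edgeR). The 4 were 50%, against 15.8% of all tested genes. On the log2 scale the fold change of Socs3, an inhibitor of cytokine receptors that many cytokines induce, was 1.66 ± 0.39, with Socs1 at 0.67 ± 0.25, the ISG15-conjugating enzyme gene Ube2l6 at 0.49 ± 0.18 and the phosphatase gene Ptpn6 at 0.22 ± 0.08. Of 7 other genes of the IRF family and its binding proteins, 2 were higher at an unadjusted p under 0.05 and 0 passed (edgeR). The 2 were 28.6%, against 15.8% of all tested genes. Irf8, a factor of macrophages and dendritic cells, had a log2 fold change of 0.65 ± 0.14, with Irf4 at 1.23 ± 0.43, Irf2 at 0.21 ± 0.10 and Irf2bp2 at 0.0731 ± 0.0719. Irf3, which starts the transcription of interferon genes, lay between 53.9 and 55.2 CPM in mild libraries and between 51.5 and 53.2 CPM in severe ones (log2 fold change -0.0567 ± 0.0648); it was chosen after its values were seen.

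On a list of further interferon-induced genes 36 were tested, and 0 passed the adjustment (edgeR). At an unadjusted p under 0.05 (edgeR), 26 were higher (72.2%, against 15.8% of all tested genes) and 0 lower (against 7.89%). Groups were apart for 20 (55.6%, against 17.9%). The median log2 fold change was 0.45, beside 0.52 for the type I induced members. Ifitm3, which blocks viral entry at the endosome, stood at 50.7, 41.3 and 42.4 CPM in mild 7, 8 and 9 and at 58.6, 89.6 and 79.4 CPM in severe 13, 14 and 15 (log2 fold change 0.76 ± 0.16). For Ifitm1 the log2 fold change was 1.05 ± 0.25, and it was 0.51 ± 0.10 for the secreted glycoprotein gene Lgals3bp. In these 3 genes the groups were apart.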

How the data were processed

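The authors deposited a table of raw read counts per Ensembl gene, with 1 length per gene, for 6 libraries. Per the submitters' processing notes Bowtie2 2.2.3, TopHat2 2.0.12, HTSeq 0.6.1 and mm10 were used; their roles, the counting mode, strand and annotation were not given in the sources used here. Column names give each library's group, and their numbers match no single sample title, so columns served as unpaired replicates of their group.

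Counts were filtered with filterByExpr, scaled by TMM and tested for severe minus mild in edgeR 4.0.16 under R 4.3.3, by its quasi-likelihood F test (robust setting), with Benjamini-Hochberg adjustment over 14883 tested genes. The standard error of a log2 fold change is its size over the square root of its F statistic. Alternatives used other scaling, filters, DESeq2 1.42.0, limma 3.58.1 and libraries left out in turn. The test was run on simulated counts that had the same spread in both groups and no outlying library. That check does not cover the uneven spread of these data. Members and lists were chosen with earlier results of these data known; of the pathway genes only Gbp10 matched no row. By rule, all 39 members may be named, the 4 members per class with the smallest p are given in every library, and up to 4 genes per pathway list with the smallest p are named. Values by library of Ifit1, Rsad2, Cmpk2, Gbp2 and Isg15 were chosen after they were seen. Of 31 member promoters, 30 had bases after the start that match a GENCODE M21 transcript of the gene.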

Additional observations from a re-analysis of the deposited data

How the results depend on the processing

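No member passed the adjusted threshold with RLE, upper-quartile or library-total scaling, either other filter, non-robust dispersion or limma-voom (21 at an unadjusted p under 0.05), as in the analysis reported. DESeq2 called 12 members and limma-voom with quality weights 26, where it called 18.2% of all tested genes higher. Leaving out each library in turn gave 0 to 20 members. The number of all tested genes past the threshold, 2 in the analysis reported, was 1 with library totals, 146 without a filter, 1171 with DESeq2, 5041 with quality weights and 0 to 3269 with each library left out. At an unadjusted p under 0.05, a count whose alternatives were added after seeing the data, between 15 (without severe library 15) and 31 members (quality weights) were higher, beside 1930 of 15071 and 3521 of 14883 tested genes.

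In the analysis reported 0 genes of the pathway lists passed. Tested there were 10 receptor and kinase, 15 sensing, 8 feedback, 7 IRF family, 36 further interferon-induced and 19 interferon-gamma-induced genes. DESeq2 called 3 receptor and kinase genes, 5 sensing genes, 1 feedback gene, 1 IRF family gene and 12 further interferon-induced genes. Of all tested genes it called 7.19% higher and 0.993% lower. Quality weights called 7, 10, 4, 2 and 25 genes of these lists and 11 induced by interferon-gamma. Their shares of all tested genes were 18.2% higher and 15.7% lower. Without a filter 1 each was called among receptors and kinases, sensing, IRF family and further interferon-induced genes, beside 0.591% of all tested genes higher. With each library left out the counts were 0 to 6, 0 to 9, 0 to 2, 0 to 2, 0 to 22 and 0 to 7 in the same order. In those fits 0 to 13.8% of all tested genes were called higher and 0 to 7.74% lower.

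The median log2 fold change of the members stayed above 0 in all 15 alternatives, from 0.38 (without severe library 14) to 0.65 (library totals, a scaling that moved the median of all genes to 0.17). The motif shares moved to 41.9%, 32.3% and 29.0% for the response element, its form with a further C (41.9% in the full window) and the gamma-activated site when only the 250 bases before the start were searched. Over all promoters these shares were 3.05%, 0.714% and 7.14%. With every start in the table, a choice added after seeing the data, they were 41.0%, 33.3% and 28.2% of 39 starts of the members. The response element was then found at 16 starts, as many as with 1 start per gene. Over all starts the shares were 3.44%, 0.819% and 8.3%. No paired analysis was possible because the groups share no replicate numbers. Members with few counts limit what can be seen: Oas3, Mx1, Mx2 and Isg20 stood below 5 CPM in every library.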
